A study of Vitis vinifera with 23 samples.

Results

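A set of 111 grape berry genes had higher transcript levels under elevated light exposure in green berries and not, by the limits used, in ripening berries. They were taken from the 29970 gene models of the grapevine transcriptome table by a rule that used the measured values: at EL31 and at EL33 every exposed sample lay above every control sample and the exposed mean was at least 1.5 times the control mean and at least 5 FPKM, while at EL34 and at EL38 the exposed mean was below 1.5 times the control mean. FPKM (fragments per kilobase of transcript and per unit of library size) scales a gene's reads by its length and by the mapped fragments of the library, so levels can be set side by side between genes. The first limits, on level and on separation of the groups in green berries, left 844 genes, the fold limit left 358, and 111 of those also met the limits at the later stages.

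The samples were Sauvignon blanc berries freed of their seeds, from field-grown vines of 1 vineyard. Exposed berries came from panels of vines whose bunch zone had been stripped of leaves and lateral shoots on one side of the canopy earlier in the season, and control berries from panels beside them that stayed shaded. Both were collected at 4 stages of the Eichhorn-Lorenz scale: EL31 (pea-sized green berries), EL33 (green berries before véraison), the stage labelled EL34 (véraison, the onset of ripening) and EL38 (ripe berries). Each of the 8 groups had 3 samples, except control berries at EL38, which had 2. Each sample holds berries of a panel of vines, skin and pulp with the seeds taken out, so that fewer cells of a type and less RNA per cell cannot be told apart.

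A green berry is a photosynthetic organ. Its chloroplasts split water at photosystem II, pass electrons through the thylakoid membrane and fix carbon in the Calvin cycle, and much of this equipment is lost when the berry softens and becomes a sink for sugar. Where rubisco takes oxygen in place of carbon dioxide, the product is salvaged by photorespiration, a pathway that runs through chloroplast, peroxisome and mitochondrion and that grows in weight under strong light. These statements are background and not results of the present data.

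Names for the 111 members came from the study's own annotation tables and text, which cover 4644 of the gene models and were in part compiled from genes that differed in these same samples. An annotation naming a product was found for 35 members, and 76 are given by identifier only. The files write each identifier with the prefix Vv, and the same number is written here with the prefix VIT_. Neither gene sequences nor positions were analysed here.

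The files held no read counts. From values below 0.06 FPKM, where single reads decide a level, the relative depth of the libraries was estimated at 0.694 to 2.63 times the median library, with the 3 EL34 controls at 0.775 to 0.89 and the 3 EL33 controls at 1.09 to 2.63, so that low levels are less precise at the later stages. Flavonol synthase (VIT_18s0001g03470), a gene known to answer to light, followed the labels at every stage and averaged 19.5 FPKM in exposed berries against 0.736 FPKM in control berries at EL31. Seed storage genes (8 genes of the albumin, globulin and oleosin families) summed to 1503 FPKM in EL33 control replicate 1, against at most 154.5 FPKM in the other 5 libraries of that stage, and to between 371 and 1371 FPKM in the exposed berries of EL34 against 257 to 296 FPKM in its controls. Oleosin VIT_02s0234g00110 alone averaged 265 FPKM in the EL34 controls, and 146 FPKM in exposed and 210 FPKM in control berries at EL38. At EL34 albumin VIT_19s0177g00090 averaged 181 FPKM in exposed berries and 0.558 FPKM in controls, and globulin VIT_07s0005g03410 139.8 and 0.169 FPKM. The part of this seed signal in the results at EL33 and EL34 was not tested. Without EL33 control replicate 1 the rule found 144 genes, 100 of them among the 111.

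Over the 111 members the exposed to control ratio of mean FPKM had a median of 1.84 at EL31 (range 1.50 to 3.75), 1.63 at EL33 (1.50 to 2.56), 1.26 at EL34 (0.770 to 1.496) and 1.01 at EL38 (0.564 to 1.498). Because the rule asked for a ratio of at least 1.5 at the green stages and below it afterwards, this course is a description of how the genes were chosen and was given no test. Within those limits, 41 members had at least 2 times the control level at EL31 and 13 at EL33. At EL34 the ratio was above 1 in 98 members and at least 25% above the control in 57. At EL38 the members were split, with 59 above 1 and 52 below 1. No share over all genes stands beside these counts, and the rule had used both contrasts, so nothing is read from them.

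**Figure D1:**
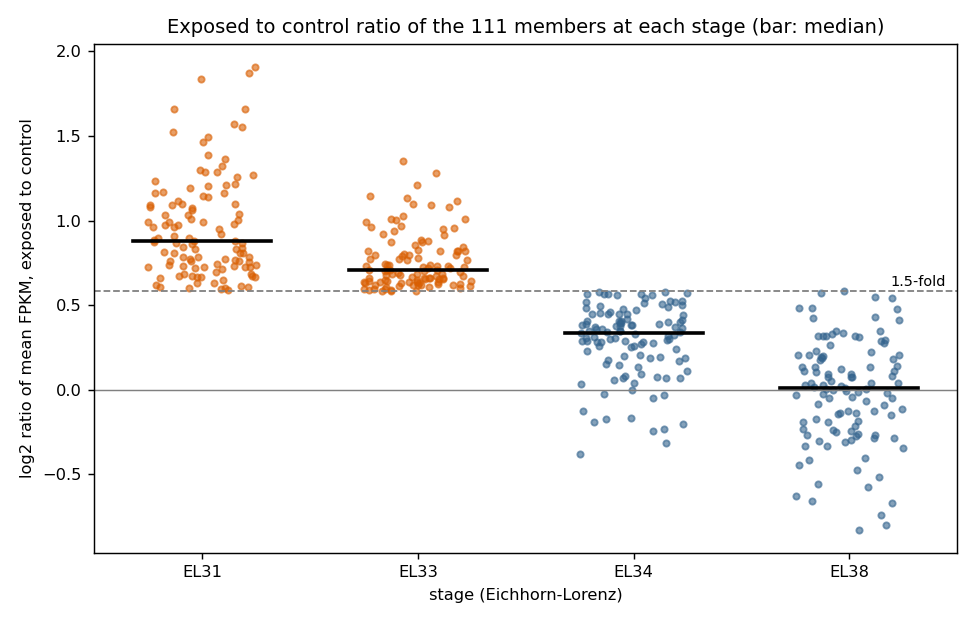
Log2 ratio of the mean FPKM of exposed berries to that of control berries for each of the 111 members (points, orange in green berries and blue afterwards) at each stage, with the median as a bar and the 1.5-fold limit of the rule as a dashed line. The median ratio was 1.84 at EL31, 1.63 at EL33, 1.26 at EL34 and 1.01 at EL38, and all points lie above the dashed line at EL31 and EL33 and below it at EL34 and EL38, as the rule asked.

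The limma fit of all 20205 genes tested (log2 of FPKM + 0.1, Benjamini-Hochberg adjusted p of at most 0.05) called 88 of the 111 members higher in exposed berries at EL31, where it called 3.8% of all genes higher, and 69 at EL33, where it called 2.54%. Since the rule used these contrasts, nothing is read from the counts. The rule had already placed every exposed sample above every control in all 111 at both stages, which 11.3% of all genes showed at EL31 and 8.96% at EL33. Both stages were called higher in 64 members and neither was called in 18, against 1.65% and 93.7% of all genes. The count at EL33 was 20 without EL33 control replicate 2, 35 without control replicate 1, 41 without exposed replicate 1 and 43 without exposed replicate 2, and it was 0 when only the samples of that stage were fitted. The fit called 6 members higher at EL34 (2.17% of all genes) and 1 at EL38 (1.52%), and it called 0 lower at either stage (1.16% and 3.26% of all genes), with 0 members lower at EL34 and 9 at EL38 before adjustment (p of at most 0.05). The count at EL34 was 0 without exposed replicate 2 or exposed replicate 3, 1 without control replicate 2, and 2 without exposed replicate 1 or control replicate 1.

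Relative to the control mean of each gene, the median member stood at 1.92, 1.78 and 1.87 times in the 3 exposed samples of EL31, against 0.955, 0.968 and 1.06 times in the 3 controls. At EL33 it stood at 1.58, 1.805 and 1.53 times in exposed samples, against 1.02, 0.882 and 1.10 times in controls. At EL34 the exposed samples stood at 1.23, 1.38 and 1.11 times and the controls at 0.992, 0.924 and 1.09 times, so that the lowest exposed library lay close to the highest control. At EL38 the exposed samples stood at 1.03, 1.004 and 0.962 times, between the 2 controls at 1.08 and 0.922 times. The lowest green control library was EL33 control replicate 2, and without it the rule found 72 genes in place of 111, of which 70 were among the 111.

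Among the 10 most abundant members, ranked by the exposed mean over the green stages, 3 were annotated, and all 3 were genes of chloroplast photosynthesis. The first of them, VIT_19s0027g00200, encodes PSBR, a small subunit of photosystem II close to the oxygen-evolving complex. Its level was 2837, 3110.2 and 3369.7 FPKM in exposed berries and 1505, 1665 and 1894 FPKM in control berries at EL31. At EL33 it was 2592, 3376 and 2529 FPKM in exposed berries and 1814, 1392 and 1769.7 FPKM in controls. The mean ratio was 1.84 and 1.71 at these 2 stages. At EL34 all 3 exposed samples, at 1366, 1421 and 1196 FPKM, were still above the controls at 957, 845 and 999 FPKM. At EL38 the groups overlapped at 301, 305 and 243 FPKM in exposed berries and 299.8 and 264.2 FPKM in controls.

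VIT_12s0028g01080 encodes PSBP, an extrinsic protein of the oxygen-evolving complex that helps to hold the calcium and chloride needed for water splitting. It had 2333, 1667 and 1836 FPKM in exposed berries and 1255, 1072 and 1206 FPKM in controls at EL31, and 1137, 1158 and 1001 FPKM against 785, 590.3 and 724 FPKM at EL33. Its exposed to control ratio was 1.65, 1.57, 1.30 and 0.88 from EL31 to EL38. A second gene of this annotation, VIT_13s0019g00320 (PsbP protein), was far less abundant and had the larger ratio at both green stages. It had 12.3, 15.9 and 11.8 FPKM in exposed berries and 2.45, 2.69 and 6.05 FPKM in controls at EL31, a ratio of means of 3.58, and the third control lay well above the other two. At EL33 the 3 exposed samples, at 6.30, 5.63 and 6.07 FPKM, were tightly grouped above the controls at 2.57, 2.32 and 3.29 FPKM. At EL34 its ratio of 1.48 was close to the limit of the rule, and at EL38 its means were 1.14 FPKM in exposed berries and 1.41 FPKM in controls.

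VIT_12s0059g01810 is annotated as PsbZ, a small membrane subunit of photosystem II near its light-harvesting antenna. Its exposed samples had 143, 104 and 105 FPKM at EL31 against 65.4, 61.8 and 44.1 FPKM in controls, and 58.1, 86.0 and 43.1 FPKM at EL33 against 30.5, 22.5 and 27.9 FPKM. The spread among exposed samples was wide at EL33, with the highest about double the lowest. The ratio of 2.31 at EL33 was among the 5 largest of that stage, and at EL38 it was 0.68, with overlapping groups.

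**Figure D2:**
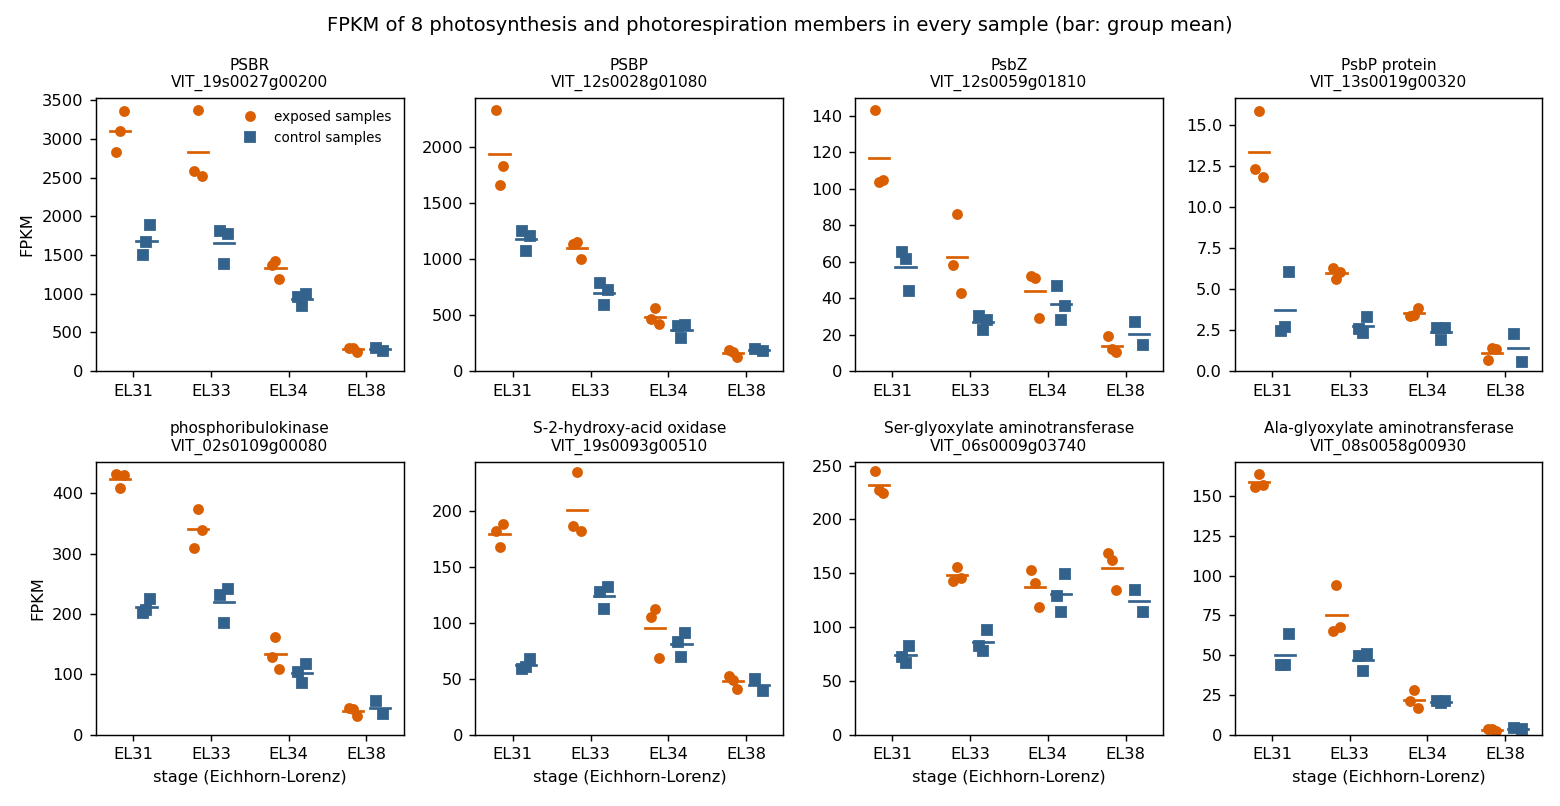
FPKM (linear axis from 0) of 8 members in every sample by stage, exposed samples as circles and control samples as squares, with group means as bars: the 4 photosystem II members in the upper row and phosphoribulokinase and 3 photorespiratory members in the lower row. At EL31 and EL33 all circles lie above all squares, as the rule asked, and at EL38 the groups overlap in all 8.

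The light reaction and chlorophyll list held 49 annotated genes, chosen by the words of their annotation, of which these 4 were members. The 49 genes summed to 30334 to 34064 FPKM in exposed berries and 18041 to 19568 FPKM in controls at EL31. The sums were 17237 to 22622 FPKM against 9974 to 13127 FPKM at EL33, and 8432 to 10319 FPKM against 5634 to 7410 FPKM at EL34. At EL38 they were 4324 to 4569 FPKM against 3787 to 4587 FPKM. The groups were thus apart at EL31, EL33 and EL34, and overlapped only at EL38. Of the 45 others, 21 were called higher and 0 lower in exposed berries at EL31, 9 higher and 0 lower at EL33, 10 higher and 0 lower at EL34, and 0 in either direction at EL38. Of all genes tested, 3.8%, 2.54%, 2.17% and 1.52% were called higher at these stages, and 0.881%, 0.95%, 1.16% and 3.26% lower. The median log2 difference of the 45 was 0.74, 0.41, 0.39 and -0.19, against -0.03, -0.02, -0.01 and -0.03 over all genes tested. The study compiled these annotations in part from genes that differed in these samples, so the counts are not independent evidence of a direction. A gene just outside the limit at EL33 was also of photosystem II: VIT_00s0207g00210, annotated as PsbO, had a ratio of 1.4975 there. The nearest one outside, VIT_18s0122g00900 at 1.4976, had no annotation.

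Other members belonged to carbon fixation. Phosphoribulokinase and glyceraldehyde-3-phosphate dehydrogenase were named by rule, and the aldolase and the thioredoxin below were added after their values were seen. Phosphoribulokinase (VIT_02s0109g00080), which makes the carbon dioxide acceptor of the cycle, had 433, 408 and 431 FPKM in exposed berries and 202, 206 and 225 FPKM in controls at EL31. At EL33 it had 310.3, 374 and 339 FPKM in exposed berries and 232, 186 and 241 FPKM in controls. Its mean ratio was 2.01 at EL31 and 1.55 at EL33, and the groups were apart at both stages.

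Chloroplast glyceraldehyde-3-phosphate dehydrogenase A (VIT_14s0068g00680), the reducing enzyme of the cycle, averaged 742 ± 31.5 FPKM in exposed berries and 409 ± 17.9 FPKM in controls at EL31 (SD, n = 3 each). At EL33 its ratio of 1.5009 was just inside the limit. Chloroplast fructose-bisphosphate aldolase (VIT_04s0023g03010), which condenses triose phosphates, had 511, 493 and 477 FPKM in exposed berries and 195, 193 and 225 FPKM in controls at EL31. Its ratio was near the limit in ripe berries, at 1.46, where its exposed samples had 177, 168 and 186 FPKM and its controls 144 and 99.3 FPKM without overlap. An M-type thioredoxin (VIT_18s0001g15310), of the family that passes reducing power from the light reactions to chloroplast enzymes, had ratios of 2.35 and 1.76 at EL31 and EL33, and 1.24 and 1.10 afterwards.

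Several members belonged to photorespiration and glyoxylate metabolism, and 2 of them were among the 5 largest ratios at EL31. The peroxisomal S-2-hydroxy-acid oxidase (VIT_19s0093g00510), annotated as the enzyme class that oxidizes glycolate, had 182, 168 and 189 FPKM in exposed berries and 59.1, 60.5 and 67.8 FPKM in controls at EL31. Serine-glyoxylate aminotransferase (VIT_06s0009g03740), which turns glyoxylate into glycine in the peroxisome, had 245, 227 and 225 FPKM in exposed berries and 72.3, 66.5 and 82.1 FPKM in controls. The ratios of means were 2.87 and 3.15, and in neither gene did the highest control come near the lowest exposed sample.

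At EL33 the oxidase had 187, 234 and 182 FPKM in exposed berries and 128, 112 and 132 FPKM in controls, a ratio of 1.62. The aminotransferase had 143, 156 and 146 FPKM in exposed berries and 82.5, 77.5 and 97.3 FPKM in controls, a ratio of 1.73. At EL34 the groups of both genes overlapped, with ratios of 1.17 and 1.05.

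A gene annotated as a mitochondrial alanine-glyoxylate aminotransferase (VIT_08s0058g00930) had 156, 163.7 and 157 FPKM in exposed berries and 43.6, 43.9 and 63.2 FPKM in controls at EL31. At EL33 it had 65.0, 94.0 and 67.7 FPKM in exposed berries and 49.8, 40.0 and 50.6 FPKM in controls. Its exposed mean was 159 FPKM at EL31 and 75.6 FPKM at EL33, while the control means were 50.2 and 46.8 FPKM. The mitochondrial H protein of the glycine cleavage system (VIT_02s0012g01120), the lipoyl carrier of the complex that splits photorespiratory glycine, had 375, 289 and 319 FPKM in exposed berries and 121, 109 and 146 FPKM in controls at EL31. A malate dehydrogenase annotated as glyoxysomal (VIT_03s0088g01190), named here after its values were seen, had ratios of 2.76 at EL31 and 1.85 at EL33.

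Of the 29 annotated genes of the carbon fixation and photorespiration list, 4 were members. Among the 25 others, 9 were called higher and 1 lower in exposed berries at EL31, 3 higher and 0 lower at EL33, 4 higher and 0 lower at EL34, and 1 higher and 2 lower at EL38. Of all genes tested, 3.8%, 2.54%, 2.17% and 1.52% were called higher at these stages, and 0.881%, 0.95%, 1.16% and 3.26% lower. The median log2 difference of the 25 was 0.26, 0.18, 0.15 and 0.00, against -0.03, -0.02, -0.01 and -0.03 over all genes. These annotations also came in part from genes that differed in these samples, so the counts are not independent evidence. Taken with the photosystem II genes, the 13 chloroplast and photorespiratory members named above had ratios of 1.65 to 3.58 at EL31 and 1.50 to 2.31 at EL33. The 13 were put together after their values were seen. At EL34 all 13 were above 1, at 1.05 to 1.48, and at EL38 6 were above and 7 below 1, at 0.680 to 1.46.

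The remaining annotated members had other roles. CYP71A26 (VIT_17s0000g09550), a cytochrome P450, had the largest ratio at EL33 and the second largest at EL31. Its exposed samples had 18.1, 19.99 and 19.2 FPKM at EL31 against 4.15, 4.17 and 7.37 FPKM in controls. At EL33 it had 14.5, 29.5 and 18.9 FPKM in exposed berries, the highest about double the lowest, against 5.98, 7.59 and 10.99 FPKM in controls. At EL34 its means were 4.73 FPKM in exposed berries and 3.57 FPKM in controls, and the groups overlapped there and at EL38.

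The gene with the largest ratio at EL31, VIT_00s2377g00010, had no annotation. It had 30.4, 23.7 and 30.0 FPKM in exposed berries and 6.94, 5.56 and 9.91 FPKM in controls at EL31, a ratio of 3.75. Its control mean was 21.8 FPKM at EL33, where the ratio was 1.67. At EL34 every exposed sample, at 24.2, 28.4 and 26.0 FPKM, lay below every control, at 30.2, 33.1 and 29.8 FPKM and the groups lay the same way round at EL38. A second member without annotation, VIT_16s0050g00710, had ratios of 2.499 and 2.43 in green berries and 0.87 at EL34, with exposed values of 126, 61.9 and 73.4 FPKM at EL31 against 45.9, 26.8 and 31.8 FPKM in controls.

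Both heat shock list members were DnaJ proteins, the partners that hand unfolded proteins to HSP70 chaperones. VIT_01s0010g03640 had 120.4, 94.3 and 127 FPKM in exposed berries and 56.7, 46.8 and 56.1 FPKM in controls at EL31, and 192, 228 and 258 FPKM against 279 and 271 FPKM at EL38, where every exposed sample lay below both controls. VIT_19s0015g01370 had 97.1, 99.4 and 62.4 FPKM in exposed berries and 47.1, 32.6 and 49.3 FPKM in controls at EL33. Among the 86 other heat shock genes the median log2 difference was 1.43, 1.09, 1.77 and 0.74 from EL31 to EL38. Of them 49, 44, 48 and 36 were called higher, against 3.8%, 2.54%, 2.17% and 1.52% of all genes. These annotations too came in part from genes that differed in these samples, so the counts are not independent evidence. The summed level of all 88 heat shock genes was 14979 to 17583 FPKM in exposed berries and 3745 to 4510 FPKM in controls at EL31, and 17491 to 26993 FPKM against 7027 to 9012 FPKM at EL33. The groups were far apart at both green stages. They did not overlap at EL34 (13586 to 22122 FPKM against 4348 to 4744 FPKM) or at EL38 (6565 to 11314 FPKM against 4039 to 4508 FPKM) either. The part of this heat shock signal in the other members' values was not tested.

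The ethylene receptor ETR2 (VIT_05s0049g00090), which binds the hormone and represses its pathway when unbound, had 23.5, 21.5 and 23.4 FPKM in exposed berries and 14.3, 13.7 and 13.3 FPKM in controls at EL31, and 56.6, 47.5 and 39.9 FPKM against 24.5, 24.0 and 25.4 FPKM at EL33. It kept every exposed sample above every control at all 4 stages, with ratios of 1.36 and 1.13 at EL34 and EL38. Of the 94 other hormone genes, 5 were called higher and 0 lower at EL31 and 7 higher and 2 lower at EL33. Over all genes tested, 3.8% were called higher and 0.881% lower at EL31, and 2.54% and 0.95% at EL33. The median log2 difference of the 94 was 0.00 and 0.01 at these stages, against -0.03 and -0.02 over all genes. The flavonoid list had a single member, flavonoid 3-monooxygenase (VIT_16s0022g01390), with 40.0, 39.7 and 41.6 FPKM in exposed berries and 21.6, 22.7 and 23.8 FPKM in controls at EL31. Of the 49 cell wall genes, 0 were members. Only 111 of the 20205 genes tested were members, so nothing is read from this count in so short a list.

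A pair of B-box zinc fingers, of a family of transcription factors many of which act in light signalling in Arabidopsis, were both members. VIT_00s0347g00030 had 35.2, 38.7 and 28.1 FPKM in exposed berries and 18.8, 18.4 and 20.6 FPKM in controls at EL33. VIT_00s0203g00210, named after its values were seen, had 25.05, 29.3 and 24.4 FPKM in exposed berries and 13.3, 12.2 and 16.2 FPKM in controls. In each, the 3 exposed samples lay clear of the controls. Genes of one family can share reads, and whether these 2 do was not tested. The amino acid transporter LYSINE HISTIDINE TRANSPORTER 1 (VIT_14s0171g00400) had 30.3, 14.8 and 25.2 FPKM in exposed berries and 11.3, 8.82 and 11.6 FPKM in controls at EL33, and its ratio was 1.59, 2.22, 1.27 and 0.83 from EL31 to EL38.

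The 7 others of the 10 most abundant members had no annotation. Of these, VIT_12s0035g00270 had 2357, 3025 and 2806 FPKM in exposed berries and 1344, 1702 and 1767 FPKM in controls at EL31. At EL33 one of its exposed samples, at 3263 FPKM, stood far above the other two, and the lowest was only just above the highest control. VIT_06s0004g05180 had the largest EL31 ratio of the 10, at 2.29, with 997, 993 and 1053 FPKM in exposed berries and 399, 425 and 505 FPKM in controls. VIT_14s0081g00060 had ratios of 1.67, 1.77 and 1.37 up to EL34 and the smallest ratio of all members at EL38, 0.56, with 9.83, 7.87 and 9.90 FPKM in exposed berries and 18.2 and 14.4 FPKM in controls. The other 4, VIT_00s0125g00280, VIT_09s0002g04320, VIT_08s0007g00840 and VIT_01s0026g02480, had EL31 ratios of 1.60, 1.85, 1.95 and 1.83.

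Among the annotated members outside the lists, chosen here after their values were seen, were a beta-amylase (VIT_05s0077g00280), an enzyme of starch breakdown, with ratios of 1.76, 1.77, 1.15 and 1.26 from EL31 to EL38, and a gene annotated as an inorganic carbon transport protein (VIT_01s0011g05290), with 2.14, 1.58, 0.97 and 0.83. The beta-amylase had 109, 114 and 115 FPKM in exposed berries and 55.4, 68.0 and 68.7 FPKM in controls at EL31. The carbon transport gene had 139.7, 132 and 136 FPKM in exposed berries and 59.2, 54.3 and 77.0 FPKM in controls. Both had their groups well apart at that stage. Of the members called higher at EL34, which were 6 in number, 2 carried an annotation, ETR2 and a beta-1,3-galactosyltransferase (VIT_16s0050g02460), with 45.8, 61.9 and 53.5 FPKM in exposed berries and 33.6, 38.9 and 38.04 FPKM in controls at that stage.

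The exposure effects at the 2 green stages were set side by side as a description, since the rule had used the values of both stages and had set a lower limit on both ratios. The ratio was larger at EL31 than at EL33 in 82 of the 111 members, and the median difference of the log2 effects, EL33 minus EL31, was -0.15 against -0.02 over all genes. The limma fit called 0 of 111 at an adjusted p of at most 0.05 in this difference, where it called 0.0099% of all genes, and 12 had an unadjusted p of at most 0.05. Nothing is read from these counts. The lowest values were -1.13 ± 0.31 (SE) for VIT_00s2377g00010, -1.0 ± 0.27 for alanine-glyoxylate aminotransferase VIT_08s0058g00930 and -0.87 ± 0.18 for serine-glyoxylate aminotransferase VIT_06s0009g03740. At the other end stood the amino acid transporter VIT_14s0171g00400 at 0.41 ± 0.32, DnaJ VIT_19s0015g01370 at 0.36 ± 0.35 and VIT_01s0026g00980 at 0.31 ± 0.27.

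**Figure D3:**
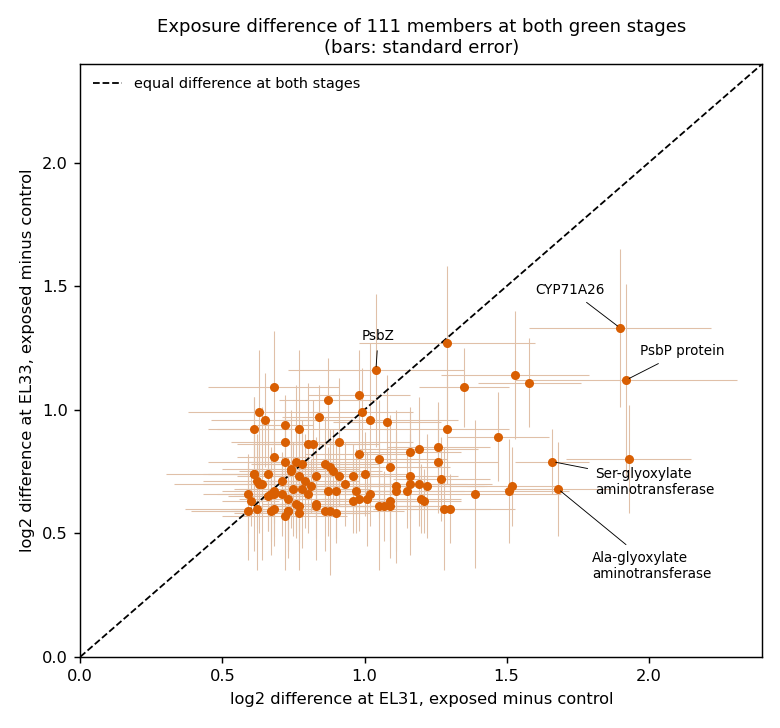
Fitted log2 difference of exposed minus control berries at EL31 (horizontal axis) and at EL33 (vertical axis) for the 111 members, with standard errors as bars and equality as a dashed line. In 82 members the ratio of means was larger at EL31, among them both glyoxylate aminotransferases.

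The rule had capped the ratio at both later stages, so the difference of the effects at EL38 and EL34 is likewise a description. Its median on the log2 scale was -0.30 over the members, against -0.03 over all genes, with 87 of 111 below 0. The limma fit called 0 members at an adjusted p of at most 0.05, where it called 1.15% of all genes, and 25 had an unadjusted p of at most 0.05, from which nothing is read. The most negative values were those of VIT_14s0081g00060, at -1.28 ± 0.36 (SE), VIT_17s0000g09610, at -1.21 ± 0.39, and VIT_17s0000g04270, at -1.11 ± 0.32. VIT_16s0050g00710, VIT_06s0004g00260 and VIT_08s0056g01160 stood at the other end with 0.55 ± 0.46, 0.50 ± 0.28 and 0.48 ± 0.27.

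At the later stages the groups of some members did not overlap. Every exposed sample was above every control in 37 members at EL34, where this held for 9.16% of all genes, and in 13 at EL38, where it held for 12.6%. Every exposed sample was below every control in 1 member at EL34 (9.88% of all genes) and in 15 at EL38 (18.4%). The rule capped the ratio from above at both stages and nothing is read from these shares. The 15 included the DnaJ gene VIT_01s0010g03640, the transporter VIT_14s0171g00400 and 13 members without a named product. The member called higher at EL38, VIT_18s0001g00190, was chosen after its values were seen and had 251, 271 and 263.2 FPKM in exposed berries and 191 and 167 FPKM in controls.

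The course of the members through development was read in control berries, where the treatment played no part. The control values had served in the rule as denominators, and the rule had asked for an exposed mean of at least 5 FPKM at EL31 and EL33, with no such floor at EL34 or EL38, whereas a gene needed only 1 FPKM in any group to be tested. The members were thus drawn under a filter on level at the green stages alone. For this reason their control courses are also given beside those of the 13566 genes tested that met the same floor at EL31 and EL33. That set shares this floor but not the other limits of the rule, and it was not matched to the members in level. Of the 111, 50 had an exposed green mean of at least 100 FPKM and 19 of under 20 FPKM. In controls 44 of the 111 had their highest mean at EL31 and 25 at EL33. No share over all genes was computed for the stage of the highest mean, so nothing is read from these counts. The lowest control mean was at EL38 in 67 members, as in 35.6% of all genes tested and 40.3% of the 13566. The median ratio of EL38 to EL31 was 0.542 in control berries, against 0.913 over all genes tested and 0.929 over the 13566, and it ranged from 0.015 to 47.03 over the members. In exposed berries, where the rule asked for high EL31 values, the same median was 0.273, against 0.885 over all genes.

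Between EL31 and EL33 the members showed no common direction. The limma fit called 30 higher at EL33 (11.5% of all genes and 13.02% of the 13566 that met the same green floor) and 26 lower (20.6% and 17.4%). The median log2 difference was -0.02 against -0.05 over all genes and -0.02 over the 13566. Quantile normalization moved the median of all genes in this contrast to 0.10 and that of the members to 0.14. The 3 largest rises were in VIT_18s0001g08300, at 3.32 ± 0.19 on the log2 scale (limma adjusted p = 9.54e-10), VIT_17s0000g09610, at 2.77 ± 0.26 (adjusted p = 2.4e-07), and B-box VIT_00s0347g00030, at 2.13 ± 0.13 (adjusted p = 1.44e-09). The 3 largest falls were in VIT_05s0102g00310, at -2.05 ± 0.31 (adjusted p = 4.93e-05), VIT_14s0081g00060, at -1.66 ± 0.24 (adjusted p = 3.07e-05), and VIT_15s0046g01470, at -1.58 ± 0.26 (adjusted p = 0.000135). Of the photosynthetic members, PSBP fell by 0.76 ± 0.17 (adjusted p = 0.00242), and PsbZ (VIT_12s0059g01810) by 1.07 ± 0.31 (adjusted p = 0.0132). The value was -0.03 ± 0.15 (adjusted p = 0.925) for PSBR and -0.33 ± 0.39 (adjusted p = 0.567) for the second PsbP gene, VIT_13s0019g00320, so that 2 of the 4 photosystem II members were called lower. The S-2-hydroxy-acid oxidase rose by 0.99 ± 0.16 (adjusted p = 0.000135), so that the control mean of this gene at EL33, 124 FPKM, was about double that at EL31, 62.5 FPKM.

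Between EL33 and EL34, at the onset of ripening, 47 members were called lower (24.2% of all genes and 25.9% of the 13566) and 30 higher (23% and 25.2%), with a median log2 difference of -0.25 against -0.03 over all genes and -0.01 over the 13566. The H protein of glycine cleavage VIT_02s0012g01120 fell by 2.14 ± 0.30 (limma adjusted p = 1.42e-05), to control values of 36.3, 24.3 and 34.6 FPKM at EL34 against 181, 101 and 144 FPKM at EL33. The multi-copper oxidase VIT_01s0011g04740 fell by 2.22 ± 0.25 (adjusted p = 1.02e-06), and VIT_05s0102g00310 had a log2 difference of -2.60 ± 0.31 (adjusted p = 2.23e-06). In the other direction the transporter VIT_14s0171g00400 rose by 3.58 ± 0.23 (adjusted p = 3.37e-09), to 134, 116 and 131 FPKM at EL34 against 11.3, 8.82 and 11.6 FPKM at EL33. VIT_09s0002g08540 rose by 2.42 ± 0.25 (adjusted p = 4.91e-07) and VIT_01s0026g00980 by 2.27 ± 0.19 (adjusted p = 6.11e-08). Of the 13 chloroplast and photorespiratory members, 10 were called lower at this step and 1 higher, serine-glyoxylate aminotransferase, at 0.61 ± 0.13 (adjusted p = 0.000671).

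Between EL34 and EL38 the members were mostly lower: 66 were called lower (23.6% of all genes and 28.3% of the 13566) and 14 higher (21.8% and 19.8%), and the median log2 difference was -0.82 against 0.00 over all genes and -0.08 over the 13566. The counts describe the list and were given no test of their own. The largest falls were in VIT_08s0056g01160, at -3.67 ± 0.20 (limma adjusted p = 3.39e-10), VIT_08s0040g03150, at -3.34 ± 0.19 (adjusted p = 4.84e-10), and VIT_01s0026g00980, at -2.95 ± 0.22 (adjusted p = 9.18e-09). VIT_01s0026g00980 reached its highest control mean, 78.1 FPKM, at EL34 and its lowest, 10.04 FPKM, at EL38. The largest rises were in VIT_06s0004g04080, at 1.49 ± 0.28 (adjusted p = 0.000294), VIT_10s0116g01650, at 1.44 ± 0.21 (adjusted p = 2.4e-05), and VIT_16s0100g00300, at 1.40 ± 0.15 (adjusted p = 7.36e-07). PSBR (VIT_19s0027g00200) had a log2 difference of -1.73 ± 0.17 (adjusted p = 2.38e-07), the M-type thioredoxin (VIT_18s0001g15310) one of -2.49 ± 0.20 (adjusted p = 2.45e-08) and alanine-glyoxylate aminotransferase VIT_08s0058g00930 one of -2.4 ± 0.21 (adjusted p = 9.28e-08). Of the 13 chloroplast and photorespiratory members 10 were called lower and 0 higher.

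**Figure D4:**
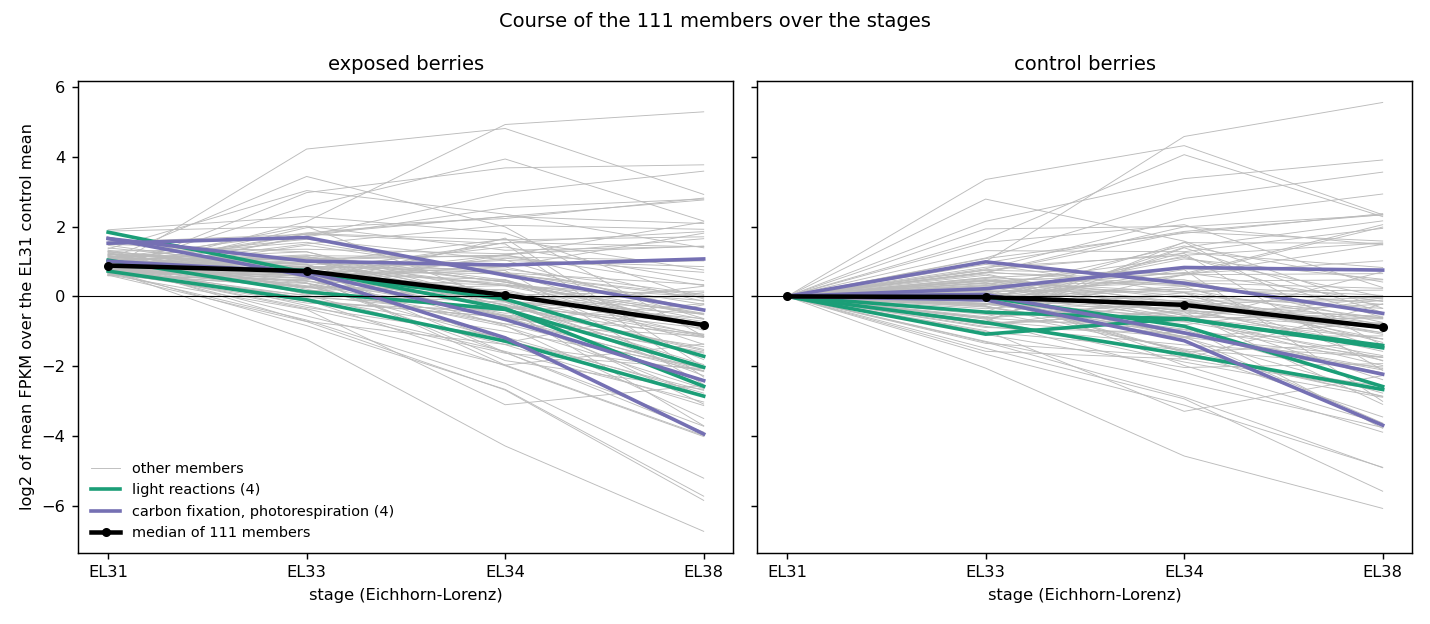
Log2 of the mean FPKM of each of the 111 members over its own EL31 control mean, at each stage, in exposed berries (left) and in control berries (right). The black line is the median of the members, green lines are the 4 light reaction members and purple lines the 4 of the carbon fixation and photorespiration list; in control berries the EL38 mean was 0.542 times the EL31 mean in the median member, and single members ran in both directions.

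Over the 3 steps, 54 of the 111 members (48.6%) were called lower at least once and never higher, against 29.2% of all genes and 30.3% of the 13566. A further 23 (20.7%) were called higher at least once and never lower, against 25.2% and 25.7%, and 29 (26.1%) in both directions at different steps, against 18.5% and 18.7%. At no step were 5 called (4.5%), against 27.1% and 25.4%. Those called higher at all 3 steps, 5 in number (4.5%, against 1.252% of all genes and 1.44% of the 13566), were ETR2, both B-box genes, the transporter VIT_14s0171g00400 and GDA2. GDA2 (VIT_02s0025g01720) was the most abundant member of ripe berries and had 234, 220.3 and 212 FPKM in exposed berries and 144, 152.1 and 144 FPKM in controls at EL31, against 1599, 1827 and 1864 FPKM and 1820.2 and 1638 FPKM at EL38. In all, 18 members had their highest control mean in ripe berries, a count with no share over all genes beside it.

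The exposed levels were also set beside earlier control stages. Of the 59 members whose control mean was lower at EL33 than at EL31, 42 had an exposed mean at EL33 above the control mean at EL31. The rule fixed this order in the other 52 and had used these values throughout, so the count is a description. PSBP was among those that did not pass the earlier control stage, with an exposed mean of 1099 FPKM at EL33 and a control mean of 1177 FPKM at EL31.

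Members close to the limits had these values. At EL31, VIT_13s0064g00580 and GDA2 were just inside with ratios of 1.5045 and 1.5139, and VIT_08s0007g02800 and the Nudix hydrolase VIT_01s0011g05670 just outside with 1.4961 and 1.4919. At EL33, VIT_13s0064g00580 and glyceraldehyde-3-phosphate dehydrogenase A were just inside with 1.5006 and 1.5009, and VIT_18s0122g00900 and PsbO VIT_00s0207g00210 just outside with 1.4976 and 1.4975. At EL34, VIT_03s0088g00400 and VIT_03s0038g04260 were just inside with 1.4956 and 1.4904, and VIT_14s0030g00190 and VIT_06s0004g01450 just outside with 1.505 and 1.506. At EL38, VIT_18s0001g08300 and VIT_15s0046g01470 were just inside with 1.4981 and 1.4851, and VIT_01s0010g01140 and VIT_07s0031g01560 just outside with 1.5147 and 1.5267.

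For the limit on level, the exposed mean at EL31 was 6.12 FPKM in VIT_01s0011g04650 and 6.63 FPKM in VIT_12s0028g01230, just inside, and 3.89 FPKM in VIT_05s0029g00140 and 3.31 FPKM in VIT_17s0000g01210, just outside. At EL33 it was 5.997 FPKM in PsbP VIT_13s0019g00320 and 6.30 FPKM in VIT_01s0011g04650, just inside, and 4.53 FPKM in VIT_14s0108g00630 and 2.65 FPKM in VIT_17s0000g05640, just outside. Levels of the members reached far above this limit: 50 had an exposed mean over the green stages of at least 100 FPKM and 19 of under 20 FPKM. No member was at 0 in any sample.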

How the data were processed

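RNA from 23 samples of berries, skin and pulp with the seeds removed, was sequenced by the authors after poly(A) library preparation, and reads were mapped with TopHat to the grapevine PN40024 reference and quantified with Cufflinks. CASAVA 1.8.2, TopHat and Cufflinks are named in the submitters' processing notes. The deposited table holds FPKM per gene model, one column per sample, and the third EL38 control had been left out by the authors. No column was left unused, and no 2 samples held identical values. Read counts were not used here, so no count model was run, and depth is known only as relative depth (0.694 to 2.63 times the median, from 242 of 253 sample pairs, using values below 0.06 FPKM).

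The 20205 of 29970 genes whose mean reached 1 FPKM in any of the 8 groups were tested on log2(FPKM + 0.1), on which scale fold changes of low genes are understated. All 23 samples were fitted with limma 3.58.1 in R 4.3.3 with 1 mean per group, and p-values were adjusted over all genes tested by Benjamini-Hochberg with a limit of 0.05. Ratios of mean FPKM were computed with Python 3.11.15. Replicates came from separate vine panels according to the methods. Same-numbered samples did not deviate together (correlations -0.087 to 0.149 over 19 pairs, 1 of them over 0.1). Sample numbers share their endings over the stages, as in 152, 252, 352 and 552 for control replicate 1. Repeated sampling of the same panels could give such numbers, but the labels do not say so. These correlations cannot decide it. The fit treated all samples as independent, and the standard errors and p-values of the stage steps rest on that.

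The members and the gene lists were chosen with earlier results of these data known. Genes named were the 10 most abundant members, the 5 largest ratios at each green stage, the 3 largest changes each way in each tested contrast, the members of the lists, and those next to a limit. The fit was tested on simulated data. Shares of all genes tested stand beside the members' counts, and for the control steps also those of the 13566 tested genes with an exposed mean of at least 5 FPKM at EL31 and EL33, a set chosen after the data were seen. Alternatives covered the limits of the rule, the pseudocount, the filter, the normalization, the variance model, blocks by replicate number and each sample left out.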

Additional observations from a re-analysis of the deposited data

Results flagged for a closer look

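In 15 of the 111 members (13.5%) every exposed sample lay below both controls at EL38, against 18.4% of all genes. The rule had placed every exposed sample above every control at EL31 and EL33 in all 111. The opposite order at the green and ripe stages in these 15 is thus a description, and nothing is read from their number. The difference between the stages was not tested here because the rule had used both contrasts.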

How the results depend on the processing

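The number of genes found by the rule moved with its limits: it was 7 with a green fold of 2, 356 with a green limit 25% above the control, 49 with a late limit 25% above it, 209 with a late fold of 2, 169 where overlap between groups was allowed, and it changed by -39 to 42 when 1 sample at a time was left out, with 72 found without EL33 control replicate 2. Leave-one-out counts of members called in exposed against control berries were 67 to 93 at EL31, 20 to 73 at EL33, 0 to 9 at EL34 and 0 to 2 at EL38. In control berries they were 43 to 56 for EL33 against EL31, 71 to 79 for EL34 against EL33 and 68 to 81 for EL38 against EL34, and for both differences of exposure effects 0 to 2. With a single EL38 control left, it is assumed to vary like the other groups. With the replicate number as a replicate block, the counts were 86 at EL31, 58 at EL33, 6 at EL34 and 0 at EL38. They were 61, 86 and 82 for the control steps, and 0 and 2 for the differences of effects. The labels do not say whether replicate numbers mark the same panels. A block by range of numbers gave 32 at EL33, 2 at EL34 and 0 at EL38. Fitting only the groups compared gave 0 at EL33, EL34 and EL38. An adjusted p limit of 0.01 gave 23 at EL33, 0 at EL34, 0 at EL38 and 35 for EL33 against EL31 in controls. Quantile normalization gave 3 at EL34, and no variance trend gave 2 at EL38. Among single genes, 193 results were followed through the alternatives, which gave 6562 outcomes in all. Of these outcomes, 6120 were on the same side of the threshold, 357 were calls lost, 85 were calls gained and 0 turned round. The cause of these shifts was not tested. Low levels at EL34 and EL38 rest on the shallower libraries.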
